A study of Mus musculus with 6 samples.

Results

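The transcripts described are AW112010, Malat1, Neat1, Gas5 and Snhg1, 5 long non-coding RNAs of mouse T cells, each matched by its symbol to 1 of the 23282 entries of the count tables. AW112010 was selected on its p-value, one of the smallest among the genes lower in IPMK cKO, and the other 4 were added by name as non-coding transcripts of the same cells. The choice of AW112010 therefore used the comparison of IPMK cKO with wild type, and its difference is given as a description with no test. The cells were regulatory T cells (Treg), a CD4 lineage that holds back immune reactions, obtained by FACS from C57BL/6 spleen and sequenced unstimulated. There were 3 libraries with the genotype IPMK cKO, a conditional knockout of the inositol phosphate kinase IPMK, and 3 wild type libraries. The labels call the libraries of each genotype biological replicates. The sources used here do not give the driver of the deletion, the deleted part of Ipmk, the ages of the mice, or whether libraries came from separate animals. P-values therefore measure only the spread between these libraries, which may be partly technical.

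Long non-coding RNAs are transcribed by RNA polymerase II like messenger RNAs but act, where an action is known, mostly as RNA. Malat1 is a nuclear RNA of splicing speckles, and Neat1 is the scaffold of paraspeckles, nuclear bodies that hold RNA-binding proteins. Gas5 and Snhg1 are host genes whose introns release small nucleolar RNAs, the guides that direct chemical modification of ribosomal RNA, while their spliced exons are degraded by nonsense-mediated decay. Gas5 RNA has also been described as a decoy of the glucocorticoid receptor. AW112010 is a mouse transcript induced by interferon gamma and bacterial products. It has been reported to yield a small protein in mouse macrophages and to restrain Il10 in mouse T cells.

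Of the 5 genes, 4 lie on chromosome 19 of mm10 and Gas5 lies on chromosome 1. AW112010 (ENSMUSG00000075010) spans 11047612 to 11055808 on the minus strand and has 2 annotated transcripts of 3 exons. Malat1 (ENSMUSG00000092341) spans 5795690 to 5802672 and Neat1 (ENSMUSG00000092274) spans 5824708 to 5845478, both on the minus strand with starts 42.8 kb apart. Snhg1 (ENSMUSG00000108414) spans 8723475 to 8726443 and Gas5 (ENSMUSG00000053332) spans 161034422 to 161038539, both on the plus strand. The longest annotated transcripts of Malat1 and Neat1 are single exons, while Gas5 has up to 12 exons and Snhg1 up to 10. GENCODE M21 places 9 small nucleolar RNA genes inside Gas5 and 8 inside Snhg1.

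The libraries counted tags at the 3′ ends of transcripts primed from poly(A), so where an RNA ends bears on what could be read. Annotated ends are shown from GENCODE M21 transcripts, 5′ to 3′. The poly(A) signal AATAAA or ATTAAA is in capitals where 1 lies in the last 40 bases of the sense strand.
AW112010 (chr19:11047617-11047716, minus strand): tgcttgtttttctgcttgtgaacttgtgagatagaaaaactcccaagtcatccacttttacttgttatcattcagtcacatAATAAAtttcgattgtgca
Malat1 (chr19:5795690-5795789, minus strand): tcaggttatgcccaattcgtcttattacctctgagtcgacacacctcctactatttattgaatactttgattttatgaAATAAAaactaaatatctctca
Neat1, short form (chr19:5842307-5842406, minus strand): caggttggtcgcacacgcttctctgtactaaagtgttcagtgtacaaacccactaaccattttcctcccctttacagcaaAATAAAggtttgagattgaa
Neat1, long form (chr19:5824708-5824807, minus strand): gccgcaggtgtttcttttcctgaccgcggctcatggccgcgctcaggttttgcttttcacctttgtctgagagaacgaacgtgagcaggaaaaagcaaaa
Gas5 (chr1:161038457-161038537, plus strand): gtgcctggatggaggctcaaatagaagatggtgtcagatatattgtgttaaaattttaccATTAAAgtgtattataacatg
Snhg1 (chr19:8726344-8726443, plus strand): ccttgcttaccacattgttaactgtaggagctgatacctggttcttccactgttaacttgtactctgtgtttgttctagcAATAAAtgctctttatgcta
AW112010, Malat1, the short form of Neat1 and Snhg1 carried AATAAA, which ended 13, 16, 14 and 14 bases before the last base. Gas5 carried ATTAAA, 15 bases before its last base. The long form of Neat1, which spans 20771 bases and builds the paraspeckle, held neither, and 55.0% of its last 20 bases were A. Among 139316 annotated transcripts 33.1% held either signal in this window, and among 9096 transcripts typed as lincRNA 38.6% did. The enzyme ribonuclease P cleaves the 3′ end of Malat1, so its annotated end need not be the end that was tagged. Where the tags lay within each transcript was not examined. The counts give 1 value per symbol, so the long and short forms of Neat1 were not told apart. A 3′ tag is taken to stand for a transcript end whatever the transcript's length. Levels are therefore given as counts per 1000000 (CPM) on library sizes scaled by TMM, a trimmed mean of gene ratios, and not divided by length. Priming inside a transcript was not examined, so levels of different transcripts need not compare as numbers of molecules.

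The start of AW112010 is shown because this gene carries the difference described below. The sequence is RefSeq's, build GRCm38.p6, from 250 bases before to 50 after the annotated start, with matches to the searched motifs in capitals.
AW112010 promoter (chr19:11050517-11050816, minus strand): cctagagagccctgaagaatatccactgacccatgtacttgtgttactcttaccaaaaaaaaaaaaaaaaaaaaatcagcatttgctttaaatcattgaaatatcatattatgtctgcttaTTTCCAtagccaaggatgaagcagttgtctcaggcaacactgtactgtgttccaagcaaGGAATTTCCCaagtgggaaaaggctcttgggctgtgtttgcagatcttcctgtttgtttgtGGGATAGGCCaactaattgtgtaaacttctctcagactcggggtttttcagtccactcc
Both strands were searched. The NF-kappaB motif, GGGA and CC with any 4 bases between, matched 70 and 9 bases before the start, and the NFAT core TGGAAA matched 129 bases before it. Of 32851 promoters of this length, 20.7% held the NF-kappaB motif and 21.4% held TGGAAA. The gamma-activated sequence TTCNNNGAA (8.3% of promoters) was not in this window. Nor was the interferon-stimulated response element, GAAA and GAAA with any 2 bases between (3.4% of promoters). These matches describe letters only. The annotated start is RefSeq's, at 11050566, inside the span that GENCODE gives the gene. GENCODE starts the gene farther upstream, at 11055808, and the sequence there was not searched. Distances from AW112010 to other genes use the GENCODE start.

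The library totals were 8363324 to 8980395 counts in IPMK cKO and 7464546 to 8246993 in wild type, of which 5287300 to 7130660 lay outside the ribosomal RNA precursor Rn45s. Ipmk itself had 3, 21 and 0 counts in IPMK cKO and 129, 77 and 99 in wild type. IPMK cKO replicate 1 stood apart, with correlations of log2 level across genes of 0.657 to 0.732 with the other 5 libraries. The Treg markers Foxp3, Il2ra, Ctla4 and Ikzf2 were counted in every library. All 10 listed Treg markers were tested, and their summed level was 3266 to 3822 CPM in IPMK cKO and 3496 to 4183 CPM in wild type. Over the 10475 genes that passed the filter on low counts, edgeR's quasi-likelihood test called 0% higher and 0% lower at an adjusted p of 0.05, against 268 genes (2.56%) at an unadjusted p under 0.05. All 5 transcripts passed the filter and 0 of the 5 were called. As 0% of all tested genes were called, 0 called among the 5 or in a gene list says nothing particular about them. Of the 5, AW112010 alone had groups that did not overlap. Among all tested genes, 5.66% had every IPMK cKO library below every wild type library and 4.74% had every one above. The contrast was used to choose AW112010, so nothing is read from its count.

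AW112010, the interferon-induced transcript, separated the genotypes completely. Its level was 139, 104 and 70.4 CPM in IPMK cKO replicates 1 to 3, against 295, 289.8 and 194 CPM in wild type replicates 1 to 3, from 694 to 990 counts in IPMK cKO and 1863 to 2451 in wild type. The highest IPMK cKO library thus lay below the lowest wild type library. The means were 105 ± 34.4 CPM in IPMK cKO and 259.5 ± 57.0 CPM in wild type (SD, n = 3 each), a log2 fold change of −1.31 (SE 0.34) or 2.48-fold lower. In sorted bulk cells, fewer cells that carry a transcript and less of it per cell cannot be told apart.

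AW112010 took 0.0160% of the counts outside Rn45s in IPMK cKO replicate 1 (95% exact binomial interval 0.0151 to 0.0171). In IPMK cKO replicates 2 and 3 it took 0.0140% (0.0131 to 0.0150) and 0.00973% (0.00902 to 0.0105). In wild type replicates 1 to 3 the shares were 0.0416% (0.0399 to 0.0432), 0.0401% (0.0384 to 0.0419) and 0.0271% (0.0259 to 0.0284). The intervals describe counting error alone and leave out the spread between libraries. PCR copies of a molecule were not told apart, so the intervals may be too narrow even for counting error. Ranked by level among the 10475 genes, AW112010 stood at places 1289, 1521 and 2302 in IPMK cKO and between 380 and 702 in wild type.

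**Figure D1:**
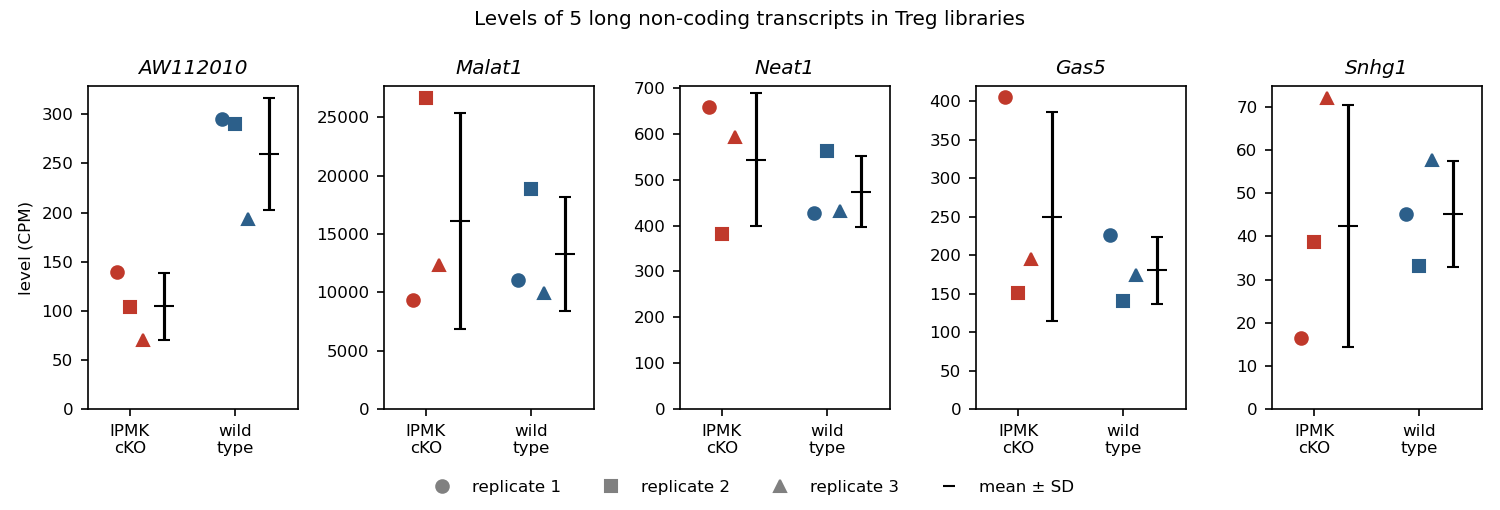
Levels in CPM (vertical axes, from 0, a separate scale for each transcript) of AW112010, Malat1, Neat1, Gas5 and Snhg1 in 3 IPMK cKO (red) and 3 wild type (blue) libraries, with a marker shape for each replicate number and the mean ± SD beside each group. The IPMK cKO libraries sit between 70.4 and 139 CPM for AW112010, below the wild type libraries at 194 to 295 CPM, while the groups overlap for the other 4 transcripts.

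Malat1 had the highest CPM of the 5 by far and varied widely within both groups. It stood at places 3, 2 and 2 of all genes in IPMK cKO replicates 1 to 3 and at 2, 2 and 3 in wild type. Its level was 9382, 26678.5 and 12312 CPM in IPMK cKO and 11060.2, 18858 and 9960.1 CPM in wild type. Replicate 2 was the highest of each group, and the lowest of all libraries was IPMK cKO replicate 1. The log2 fold change was 0.28 (SE 0.41, 95% interval −0.63 to 1.19, edgeR adjusted p = 0.9999). It was −0.32 without IPMK cKO replicate 2, so the sign of the estimate rests on that library. As a share of the counts outside Rn45s, Malat1 took 2.13% ± 1.31 in IPMK cKO and 1.85% ± 0.659 in wild type (SD, n = 3 each, exact two-sided permutation p = 0.8, where 0.1 is the smallest possible). Rn45s took 19.9% to 32.1% of all counts in IPMK cKO and 16.7% to 31.7% in wild type. It was also highest in replicate 2 of each group, but at 31.3% nearly as high in IPMK cKO replicate 1, the library with the least Malat1. Its part in the Malat1 levels was not tested.

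Neat1 varied the least of the 5. Its level was 657, 381 and 593 CPM in IPMK cKO and 428, 563 and 432 CPM in wild type, a 1.73-fold range over all 6 libraries. The groups overlapped, with both the highest and the lowest value in IPMK cKO. The log2 fold change was 0.20 (SE 0.29, 95% interval −0.44 to 0.84, edgeR adjusted p = 0.9999), an interval of 0.737 to 1.78 as a ratio of IPMK cKO to wild type. With IPMK cKO replicate 1 left out it was 0.03. For every 1000 Malat1 counts there were 70.1, 14.3 and 48.2 Neat1 counts in IPMK cKO and 38.7, 29.9 and 43.3 in wild type (exact two-sided permutation p = 0.7). That test compares the ratio between the groups, not whether both RNAs move together. Replicate 2 had the most Malat1 in each group, together with the least Neat1 in IPMK cKO and the most Neat1 in wild type.

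The start regions of Gas5 and Snhg1 are shown because these host genes belong to a class whose transcripts often begin in a run of C and T, the terminal oligopyrimidine tract. The sequences are RefSeq's, build GRCm38.p6, from 50 bases before to 50 after the start, with the longest such run that begins within 5 bases of the start in capitals.
Gas5 (chr1:161035116-161035215, plus strand): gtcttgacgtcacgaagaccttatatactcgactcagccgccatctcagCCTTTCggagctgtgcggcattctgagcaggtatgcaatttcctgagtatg
Snhg1 (chr19:8723437-8723536, plus strand): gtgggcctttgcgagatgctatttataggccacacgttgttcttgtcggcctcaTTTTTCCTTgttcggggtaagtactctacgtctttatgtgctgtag
The run was 6 bases long in Gas5 and 9 bases long in Snhg1, lengths that 13.7% and 4.0% of all promoters reached. In Gas5 it began with C, 1 base before the annotated start. The Snhg1 run began with T at base 5 from the start, so it is not a run at the annotated start itself. Where transcription begins in these cells was not tested. Gas5 has a second RefSeq start upstream, where the run was 3 bases. The sequence TGACGTCA (CRE, held by 1.8% of promoters on either strand) began 46 bases before the start of Gas5 shown.

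Gas5 reached its highest level in the library that stood apart. It was 406, 151 and 195 CPM in IPMK cKO and 227, 141 and 174 CPM in wild type. In each group replicate 1 was the highest and replicate 2 the lowest, and the groups overlapped. The log2 fold change was 0.47 (SE 0.39, 95% interval −0.38 to 1.33, edgeR adjusted p = 0.9999), and −0.07 without IPMK cKO replicate 1.

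Snhg1 had the lowest mean level, and in IPMK cKO the widest range, of the 5. It had 117, 297 and 709 counts in IPMK cKO and 375, 242 and 554 in wild type. Its level was 16.5, 38.8 and 72.0 CPM in IPMK cKO and 45.1, 33.1 and 57.6 CPM in wild type. The IPMK cKO libraries spanned 4.37-fold and enclosed the wild type libraries, which spanned 1.74-fold. The log2 fold change was −0.09 (SE 0.55, 95% interval −1.30 to 1.11, edgeR adjusted p = 0.9999), a ratio between 0.406 and 2.16. The estimate turned to 0.29 when IPMK cKO replicate 1 was left out, and to 0.12 when wild type replicate 3 was.

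The ratio of both host transcripts varied between libraries. For every 1000 Gas5 counts there were 40.6, 258 and 369 Snhg1 counts in IPMK cKO and 199, 234 and 331 in wild type (exact two-sided permutation p = 0.9). IPMK cKO replicate 1 combined the highest Gas5 with the lowest Snhg1. Of the small nucleolar RNAs inside these genes, Snord22 of Snhg1 and Snord47 of Gas5 had entries of their own. Snord22 had 472, 56 and 162 counts in IPMK cKO and 106, 32 and 118 in wild type (log2 fold change 1.61, SE 0.89, edgeR adjusted p = 0.9999). It was highest in IPMK cKO replicate 1, where its host was lowest, but so were small nucleolar RNAs of other genes. Of 121 entries named as small nucleolar or Cajal body RNAs, 16 had at least 100 counts over the 6 libraries, and 9 of these 16 had their most counts in that library. Snord49b, for example, had 2000, 74 and 1087 counts in IPMK cKO and 708, 154 and 416 in wild type. Snord47 had 0, 1 and 0 counts in IPMK cKO and 41, 0 and 27 in wild type, too few to test. Small nucleolar RNAs carry no poly(A) tail of their own, and the way tags were assigned to these entries was not stated.

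**Figure D2:**
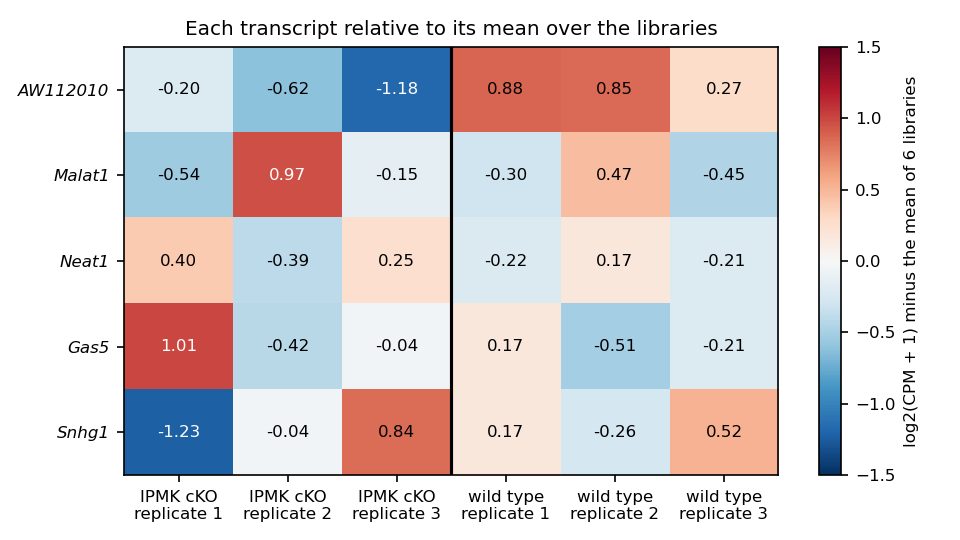
Log2(CPM + 1) of each transcript minus its mean over the 6 libraries (colour and printed value), with IPMK cKO libraries left of the line and wild type libraries right of it. AW112010 is negative in all 3 IPMK cKO libraries (−0.20 to −1.18) and positive in all 3 wild type libraries (0.27 to 0.88), whereas Gas5 and Snhg1 reach 1.01 and −1.23 in IPMK cKO replicate 1.

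The top of the order of the 5 levels was fixed and the rest was not. Malat1 came first and Neat1 second in all 6 libraries, and Snhg1 was the lowest in 5 of 6, the exception being IPMK cKO replicate 3. In the other 5 libraries Gas5 and AW112010 held the places between. In IPMK cKO replicate 3 AW112010 was lowest, at 70.4 CPM beside 72.0 CPM for Snhg1. AW112010 was above Gas5 in 0 of 3 IPMK cKO libraries and in 3 of 3 wild type libraries. For every 1000 Gas5 counts there were 344, 691 and 361 AW112010 counts in IPMK cKO and 1301, 2053 and 1114 in wild type. No scaling between libraries enters this ratio. AW112010 was chosen for its difference between these groups, so neither its place beside Gas5 nor the ratio is support for that difference. Gas5 itself was highest in IPMK cKO replicate 1. Across libraries, the ranges of Neat1 and Gas5 overlapped in IPMK cKO, as did those of AW112010 and Snhg1. In wild type the ranges of AW112010 and Gas5 overlapped, and the other neighbours in the order did not.

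The genes whose levels followed each transcript most closely over the 6 libraries were taken by the smallest root mean square (RMS) difference of centred log2(CPM + 1). Those nearest to AW112010 were the peroxisomal enzyme Phyh (RMS difference 0.11), Tmem109 (0.22), Pglyrp1 (0.24), Tmem261 (0.25) and Lyrm4 (0.26). Pglyrp1 encodes a peptidoglycan recognition protein. Phyh was 9.13 to 19.98 CPM in IPMK cKO and 27.9 to 42.7 CPM in wild type. Tmem109, whose start lies 173.8 kb from that of AW112010, averaged 26.8 CPM in IPMK cKO and 55.4 CPM in wild type. As AW112010 was chosen for its difference, genes like it differ in the same way by construction. Among those nearest to Malat1 were Stard5, Fam13b, the splicing kinase Prpf4b and Wdr37 (0.19 to 0.20). Nearest to Neat1 were Dcaf6, Lpin2, Pgap2, Calm2 and Adrm1 (0.10 to 0.12). Nearest to Gas5 were Sqstm1, Tesk1, Msl2, Atp5j2 and Ptpn18 (0.07 to 0.09), and nearest to Snhg1 were Dguok, Arap1, Scp2, S1pr1 and Taf1b (0.10 to 0.14).

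Chromosomal neighbours showed no shared shift. Of the annotated genes that start within 100 kb, 0 of the 8 near AW112010 passed the filter on low counts. Near the other 4 transcripts 25 further genes were tested, 12 with an estimate above 0 and 13 with one below. Their median log2 fold change was −0.04, and the groups overlapped for each of the 25. Slc3a2, an amino acid transporter chain whose start lies 106 bases from that of Snhg1 on the opposite strand, was 34.9, 77.7 and 91.1 CPM in IPMK cKO and 90.6, 109.6 and 108 CPM in wild type (log2 fold change −0.60, SE 0.39). The IPMK cKO values overlapped those of wild type only through replicate 3. Both Slc3a2 and Snhg1 were lowest in IPMK cKO replicate 1. Zbtb37 overlaps Gas5 on the opposite strand at 6.28 ± 3.78 CPM in IPMK cKO and 3.77 ± 3.31 CPM in wild type (SD, n = 3 each). No source used here says that strand entered the counting, so reads of overlapping genes cannot be separated.

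Host genes of small nucleolar RNAs were looked at as a family. In this list and those below, 0 called stands beside 0% called over all 10475 genes and is no result about the list. Of 21 non-coding host genes listed, 14 were tested, Gas5 and Snhg1 among them, and 0 rose, 0 fell and 14 did not pass over all genes. The estimates were above 0 for 8 and below 0 for 6, with a median log2 fold change of 0.27, beside 0.03 over all 10475 genes. Without IPMK cKO replicate 3 the median was −0.23. Snhg12 was the 1 of 14 whose groups did not overlap, at 40.8, 55.1 and 35.5 CPM in IPMK cKO and 28.5, 22.0 and 29.6 CPM in wild type (0.71, SE 0.46). Over all 10475 genes, 4.74% had every IPMK cKO library above every wild type library and 5.66% had every one below. The estimates were 0.10 (SE 0.48) for Snhg8, −0.44 (SE 0.46) for Snhg5 and −0.27 (SE 0.62) for Snhg20. They were −1.03 (SE 1.14) for Snhg6, 0.54 (SE 0.78) for Snhg9, 0.44 (SE 0.86) for Snhg3 and 0.48 (SE 0.82) for Snhg17. Snhg6 nearly vanished from IPMK cKO replicate 1 (0.14 CPM), while the remaining 5 libraries had 8.62 to 39.2 CPM. Of 9 protein-coding hosts, all tested, 0 rose, 0 fell and 9 did not pass (5 above 0, 4 below, median 0.09, −0.12 without wild type replicate 2 and −0.03 without IPMK cKO replicate 1). Among the most abundant, the nucleolar protein nucleolin (Ncl) was 1283, 1377 and 1154 CPM in IPMK cKO and 1121, 1046 and 1049 CPM in wild type (0.25, SE 0.24). The ribosomal protein gene Rpl13a, whose reads may be shared with pseudogenes, had 0.48 (SE 0.31), and the chaperone Hspa8 had −0.004 (SE 0.28).

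**Figure D3:**
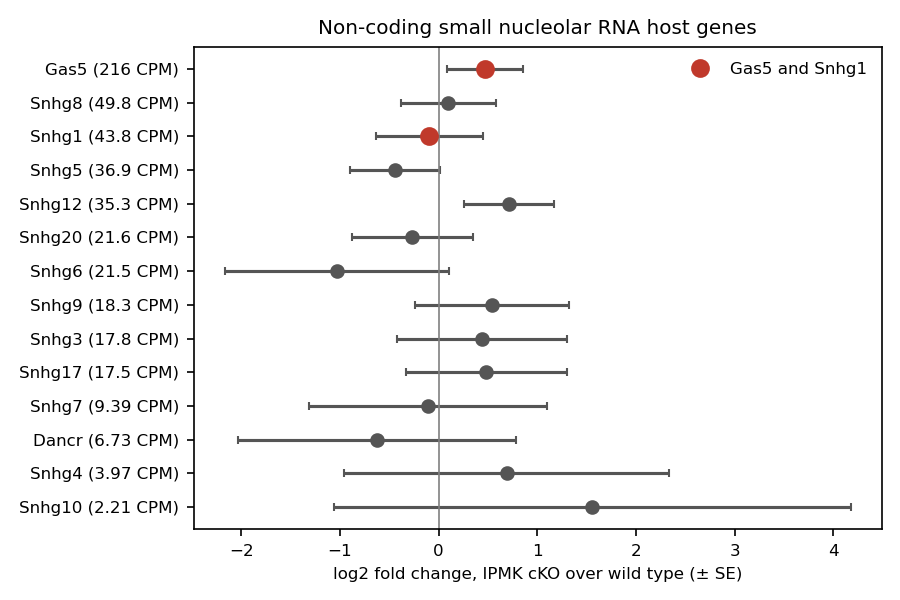
Log2 fold change of IPMK cKO over wild type (horizontal axis) with its SE (bars) for the 14 tested non-coding host genes of small nucleolar RNAs, ordered by mean level, which stands beside each name in CPM. Gas5 and Snhg1 are in red; 8 points lie right of 0 and 6 left of it, and the SE widens to 2.62 for Snhg10.

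Other long non-coding transcripts were uncalled, as were all 10475 tested genes. Of 49 listed, 21 were tested, and 0 rose, 0 fell and 21 did not pass (13 above 0, 8 below, median 0.15). The median was −0.11 without IPMK cKO replicate 2, −0.02 without IPMK cKO replicate 3 and −0.06 without wild type replicate 1. Xist, which silences an X chromosome in female cells, was 863, 912 and 718 CPM in IPMK cKO and 621, 756 and 647 CPM in wild type (0.30, SE 0.25). Its antisense partner Tsix (0.23, SE 0.26) cannot be told apart from it without strand. Kcnq1ot1, an imprinted antisense RNA, had 0.18 (SE 0.29), and Tug1 had 0.15 (SE 0.43). The entries 4930523C07Rik, 2410006H16Rik and 2900097C17Rik had 0.10 (SE 0.32), −0.16 (SE 0.33) and 0.15 (SE 0.42). A430093F15Rik had −1.30 (SE 0.97), close to absent from IPMK cKO replicate 1 (0.42 CPM) and between 30.6 and 80.9 CPM elsewhere.

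Partners of Malat1 and Neat1 were not called, as 0% of all tested genes were. Of 30 paraspeckle proteins, 29 were tested, 0 rose, 0 fell and 29 did not pass (11 above 0, 18 below, median −0.08). The splicing regulator Hnrnpm had 0.27 (SE 0.30), Hnrnpk −0.41 (SE 0.28) and Dazap1 0.26 (SE 0.31). Of 21 nuclear speckle proteins, all tested, 0 rose, 0 fell and 21 did not pass (12 above 0, 9 below, median 0.05, and −0.12 without IPMK cKO replicate 2). The speckle scaffolds Srrm2 and Son had 0.22 (SE 0.29) and 0.15 (SE 0.26), Acin1 had 0.36 (SE 0.24) and Luc7l3 0.26 (SE 0.26).

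Factors that act on host transcripts gave the following, again with 0% of all tested genes called. Of 17 nonsense-mediated decay factors, all tested, 0 rose, 0 fell and 17 did not pass. Estimates were above 0 for 14 and below 0 for 3, with a median of 0.45, which was −0.01 without IPMK cKO replicate 1. In 3 of the 17 every IPMK cKO library lay above every wild type library, and in 0 every one lay below. Among all tested genes these shares were 4.74% and 5.66%. Upf2 had 0.70 (SE 0.34), Upf3b −0.06 (SE 0.38) and the kinase Smg1 0.45 (SE 0.40). Upf2 was 425, 247 and 175 CPM in IPMK cKO and 178, 179 and 164 CPM in wild type. Of the 12 tested proteins of box C/D small nucleolar particles and their assembly, 0 rose, 0 fell and 12 did not pass (6 above 0, 6 below, median 0.10, and −0.08 without IPMK cKO replicate 1). The core proteins Nop58, Nop56 and Fbl had 0.57 (SE 0.32), 0.27 (SE 0.37) and −0.07 (SE 0.37). Larp1, which binds terminal oligopyrimidine tracts, had −0.23 (SE 0.37). Of 17 tested glucocorticoid receptor and target genes, 0 rose, 0 fell and 17 did not pass (10 above 0, 7 below, median 0.16). Hsp90aa1, Ddit4, Il7r and Zfp36l2 had 0.23 (SE 0.28), 0.35 (SE 0.36), 0.75 (SE 0.38) and 0.30 (SE 0.47).

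Interferon response genes had estimates on both sides of 0, with 0% of all tested genes called. Whether interferon acted on AW112010 in these cells was not tested. Of 44 interferon response genes, 42 were tested, and 0 rose, 0 fell and 42 did not pass (22 above 0, 20 below, median 0.10, and −0.06 without IPMK cKO replicate 2). In 3 of the 42 every IPMK cKO library lay above every wild type library, and in 1 every one lay below. Among all 10475 tested genes these shares were 4.74% and 5.66%, so the counts are no result about the list. The 1 below was the chemokine Cxcl10, at 0, 1.96 and 1.52 CPM in IPMK cKO and 6.02, 7.24 and 14.04 CPM in wild type. Ly6e had 0.60 (SE 0.40), the immunoproteasome subunit Psmb8 −0.45 (SE 0.27), the transcription factor Irf1 −0.21 (SE 0.29) and Slfn2 −0.03 (SE 0.28). Of 11 genes reported around AW112010 in T cells and macrophages, 6 were tested, and 0 rose, 0 fell and 6 did not pass (1 above 0, 5 below, median −0.45). Without wild type replicate 1 the median was −0.90. The histone demethylase Kdm5a had −0.07 (SE 0.30), the chemokine receptor Cxcr3 −0.72 (SE 0.40), Stat4 −0.81 (SE 0.48) and the chemokine Ccl5 −1.16 (SE 0.70). Cxcr3 was 48.0, 46.1 and 32.2 CPM in IPMK cKO and 50.1, 93.3 and 65.0 CPM in wild type, without overlap. Il10 had 0 counts in each IPMK cKO library and 0, 56 and 154 in wild type, and was too low to test.

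Markers of other spleen cells were low in both groups. Of 11 natural killer cell markers 6 had a count, with a summed level of 52.8 to 78.2 CPM in IPMK cKO and 55.7 to 85.0 CPM in wild type, and Ncr1, Klrk1, Klre1, Klra8 and Klra4 were at 0 in every library. Of these markers 3 were tested and 0 called. The chemokine Ccl5, which also stands in the list around AW112010, averaged 21.3 CPM in IPMK cKO and 47.7 CPM in wild type. Nkg7 was 13.7 to 51.8 CPM in IPMK cKO and up to 28.4 CPM in wild type, and the transcription factor Eomes was 11.8 to 22.5 CPM in IPMK cKO and 0 to 3.85 CPM in wild type. Their part in the AW112010 levels was not tested. Of 20 myeloid markers 14 had a count, summing to 1.55 to 37.1 CPM in IPMK cKO and 13.96 to 27.6 CPM in wild type, with Adgre1, Cd14, C1qb, Elane, Flt3 and Itgax at 0. Of 16 B cell and plasma cell markers 14 had a count, summing to 78.8 to 116.9 CPM in IPMK cKO and 61.7 to 116.6 CPM in wild type, with Pax5 among those at 0. Cd8a was at 0 and Cd8b1 was at 2.11 to 8.62 CPM in IPMK cKO and 7.82 to 12.2 CPM in wild type. Erythroid and platelet markers, 5 of 9 with a count, summed to 0 to 16.7 CPM in IPMK cKO and 0.12 to 56.3 CPM in wild type, with Ppbp, Pf4 and Gp9 among those at 0. The ranges of the groups overlapped for each list.

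Leaving out each library in turn kept AW112010 between −1.58 and −1.09 on the log2 scale. Across 15 other settings it was below 0 in 15 and called in 0. As AW112010 was chosen for its difference in these same libraries, its steady sign is no support for that difference. The estimates of the other 4 transcripts came close to or crossed 0 when single libraries were left out, as given for each.

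**Figure D4:**
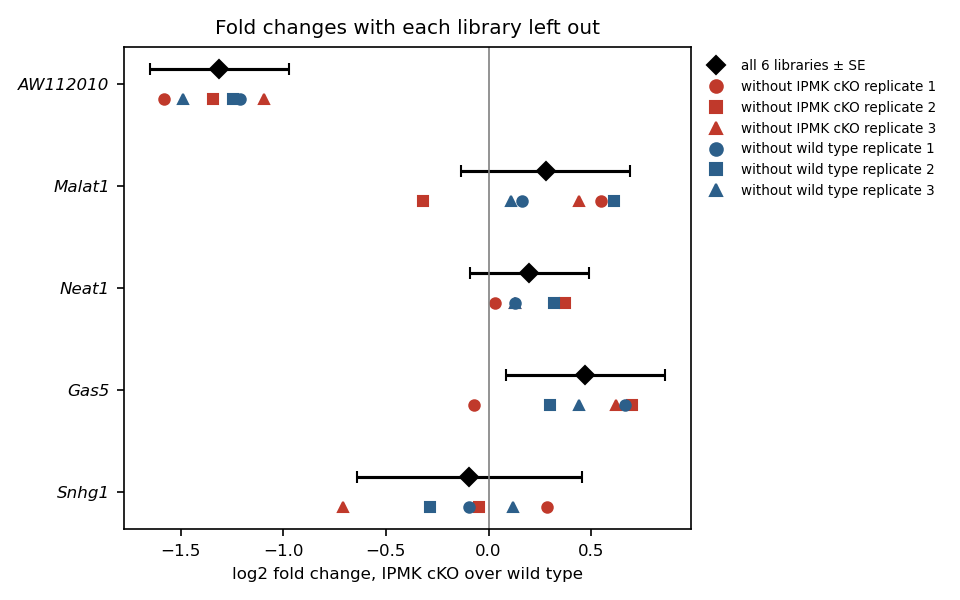
Log2 fold change of IPMK cKO over wild type (horizontal axis) for the 5 transcripts with all 6 libraries (black diamonds, bars are the SE) and with each library left out (red, an IPMK cKO library left out; blue, a wild type library left out; marker shape, replicate number). AW112010, chosen for its difference in these libraries, stays between −1.58 and −1.09, which is no support for that difference. Malat1, Gas5 and Snhg1 have points on both sides of 0 and Neat1 comes down to 0.03.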

How the data were processed

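RNA of the sorted cells went into Lexogen QuantSeq libraries, a 3′ end method, per the labels' protocols. Each of the 6 deposited tables lists 23282 entries by gene symbol with raw counts. Bowtie2, edgeR, mm10 and hg19 appear, without roles, per the submitters' processing notes. Counting program, annotation and strand setting: not given in the sources used here.

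The counts went into edgeR 4.0.16 under R 4.3.3 (TMM, filterByExpr with a minimum of 10 counts, quasi-likelihood test, Benjamini-Hochberg adjustment over 10475 genes, threshold 0.05), without the replicate number. The SE was the estimate over the square root of F, and intervals are at 95%. Shares and ratios were compared by exact permutation tests. The 5 transcripts and the lists were chosen with earlier results of these data known, and lists are described by counts and medians. Named list members were the 4 most abundant (8 for both non-coding lists); some genes these rules name are not reported here. Patterns were compared among genes with at least 20 CPM, passing over predicted genes; neighbours start within 100 kb. Genes singled out for groups that do not overlap, Snord22, Snord47, Snord49b, Foxp3, Tmem109's position, Il10, Nkg7, Eomes, Upf2's libraries and Rpph1 were chosen after their values were seen. Coordinates are from GENCODE M21 on mm10 (96.1% of tested symbols matched), promoters from RefSeq (4 of 5 matched). The procedure was tested on simulated counts. Alternatives were DESeq2 1.42.0, limma-voom (limma 3.58.1), other scalings and filters, a replicate block and leaving out libraries.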

Additional observations from a re-analysis of the deposited data

How the results depend on the processing

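AW112010 stayed below 0 and uncalled in all 15 alternatives (log2 fold change −1.58 to −1.09 with 1 library left out, −1.45 to −1.31 in the 8 other planned settings). Because the gene was chosen on this contrast in the same libraries, that stability does not test the difference. With 1 library left out, Malat1 ranged from −0.32 to 0.61, Neat1 from 0.03 to 0.37, Gas5 from −0.07 (−0.069 without IPMK cKO replicate 1) to 0.70 and Snhg1 from −0.71 to 0.29. Without both libraries numbered 1, a setting chosen after the data were seen, Neat1 was at −0.031 and Snhg1 at 0.29. DESeq2 called 3 genes lower, leaving out IPMK cKO replicate 1 gave 1, and leaving out both libraries numbered 1 gave 1, none of them among the 5 transcripts; counts called lower were 0 to 1 with single libraries left out. The median of the non-coding host genes was −0.23 to 0.33 with single libraries left out. The cause of these changes was not tested. Scaling by total counts outside Rn45s moved the median of all genes by −0.11, with AW112010 at −1.45. Deviations from the group means correlated at 0.014, 0.059 and 0.041 between same-numbered libraries, over 9182 genes. Between differently numbered libraries the correlations were −0.055 to 0.009. The same-numbered values were the highest, but all were small, so whether the numbers pair the libraries was not settled. With the replicate block the 5 estimates were −1.34, 0.19, 0.18, 0.37 and −0.28 in the order AW112010, Malat1, Neat1, Gas5 and Snhg1, and no call changed. Beside the turns of sign given with each list, the nuclear speckle median was −0.05 by total counts outside Rn45s and −0.03 by limma-voom, that of the box C/D proteins −0.04 by total counts, that of the interferon response genes −0.02 by total counts, −0.015 by limma-voom and −0.01 with the replicate block, and that of the non-coding host genes −0.01 with a minimum mean of 5 CPM. Snhg1, at 117 to 709 counts, has the widest interval of the 5.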

Other observations

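Rpph1, the RNA of ribonuclease P, the enzyme that cleaves the 3′ end of Malat1, was 54.3, 4.44 and 7.10 CPM in IPMK cKO and 0, 0.14 and 1.66 CPM in wild type, without overlap. It was one of the listed non-coding transcripts and was not called (edgeR adjusted p = 0.9999). It was highest in IPMK cKO replicate 1, the library that stood apart and that also held the most counts of many small nucleolar RNAs. The part of that library in its level was not tested. Of the 21 tested in that list, Rpph1 was the 1 with every IPMK cKO library above every wild type library. In 2, 1700020I14Rik and Dleu2, every one lay below. Among all tested genes these shares were 4.74% and 5.66%. Among the interferon response genes, beside Cxcl10, Slfn1 was 354, 263 and 275 CPM in IPMK cKO and 144, 183 and 149 CPM in wild type, and Irf7 was 132, 38.7 and 32.6 CPM in IPMK cKO and 21.3, 20.9 and 20.2 CPM in wild type. Both were higher in every IPMK cKO library, as were 4.74% of all tested genes, and neither was called. Among the Treg markers, Foxp3 was 85.1, 72.0 and 82.3 CPM in IPMK cKO and 10.4, 80.6 and 29.0 CPM in wild type, and its part in the levels of the 5 transcripts was not tested.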
